A study of Homo sapiens with 6 samples.

Results

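The miR-148 family members miR-148a-3p and miR-148b-3p are microRNAs with the same seed, and both were less abundant in exosomes of H2O2-treated keratinocytes than in exosomes of untreated ones. They were chosen by name, as the rows hsa-miR-148a-3p and hsa-miR-148b-3p, and are 2 of the 161 known miRNAs in the tables used here, which hold 276 rows in all with 115 predicted miRNAs. The RNA came from exosomes, vesicles that cells shed into their surroundings, which were spun by ultracentrifugation out of medium conditioned by HaCaT cells. That line consists of immortalised human skin keratinocytes, and both groups come from it. The H2O2 exosomes came from cells given 0.4 mM hydrogen peroxide (H2O2), an oxidant, in 3 libraries whose labels give 24, 25 and 26 h of treatment for replicates 1, 2 and 3. The series text gives 24 h for the whole group, which conflicts with those labels. If the labels are right, time and replicate cannot be told apart. The other 3 libraries came from exosomes of untreated cells of the same line, and the labels call the replicates biological.

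A microRNA is a short RNA that guides Argonaute proteins to messenger RNAs, and pairing of its seed, the bases near its 5′ end, largely decides which messages are repressed. The miR-148 family, which also counts miR-152-3p, is known for repressing the DNA methyltransferases DNMT1 and DNMT3B, and miR-148a-3p is known to repress MITF, the master regulator of melanocytes. miR-148a-3p is also among the abundant miRNAs of many vesicle preparations and body fluids. Levels of an exosomal miRNA are shares of the reads of a library. Fewer vesicles carrying it, fewer copies per vesicle and more reads of other RNAs thus cannot be told apart.

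The mature sequences below show what the members share and how they are told apart, with the seed (bases 2 to 8) in capitals, from RefSeq on GRCh38.p14.
miR-148a-3p: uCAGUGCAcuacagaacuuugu
miR-148b-3p: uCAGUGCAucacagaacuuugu
miR-152-3p: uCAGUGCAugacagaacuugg
The seed CAGUGCA, whose perfect match in a target reads UGCACUG, occurred at bases 2 to 8 in 3 of the 2370 mature miRNA names in the RefSeq table, and those 3 are the family. miR-148a-3p and miR-148b-3p are 22 bases long and differ by C9U and U10C, with miR-148a-3p's base first and positions counted from the 5′ end. miR-152-3p has 21 bases and differs from miR-148b-3p by C10G and U20G and from miR-148a-3p by C9U, U10G and U20G. Reads that lack bases 9 and 10, or are counted with mismatches, could be assigned to the wrong member, and the sources used here give no counting rules. miR-152-3p, miR-152-5p, miR-148a-5p and miR-148b-5p are not among the listed rows, so 0 of these 4 could be described, and the tables hold only rows that the authors selected for a difference.

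The hairpins show where in the precursor the counted arm lies, here with the mature 3p arm in capitals.
MIR148A: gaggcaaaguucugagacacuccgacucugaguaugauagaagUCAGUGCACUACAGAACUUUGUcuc
MIR148B: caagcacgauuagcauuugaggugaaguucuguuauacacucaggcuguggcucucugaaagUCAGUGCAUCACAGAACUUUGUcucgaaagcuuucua
The MIR148A hairpin lies on chromosome 7 at 25949919 to 25949986 on the minus strand (GRCh38.p14), with the mature arm at 25949922 to 25949943. In GENCODE release 29 it overlaps no other gene, and the nearest one is the lincRNA AC010719.1, which is 516 bases away on the same strand. The MIR148B hairpin lies on chromosome 12 at 54337216 to 54337314 on the plus strand, with the mature arm at 54337278 to 54337299. It is in an intron of COPZ1, a subunit gene of the COPI vesicle coat, on the same strand, and it also lies within the non-coding gene AC078778.2. The MIR152 hairpin, on chromosome 17 at 48037161 to 48037247, lies within COPZ2, the paralog of COPZ1. The hairpins of the members thus lie on separate chromosomes.

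Library totals, recovered by dividing each deposited count by its deposited value per 1000000 reads, ran from 2449856 to 5405525 reads. Library composition differed within the H2O2 group, where miR-1246 took 3.32%, 0.261% and 27.4% of the total in replicates 1, 2 and 3, against 0.1295%, 0.368% and 1.15% in untreated replicates 1, 2 and 3. Any level given per 1000000 of the total has those reads in its denominator, so the levels below are also given with them taken out. None of the 8 keratinocyte and epithelial marker miRNAs, such as miR-203a-3p and miR-205-5p, is listed (0), so the cell type could not be checked against them in these selected rows.

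miR-148a-3p, the most abundant of the listed known miRNAs in every untreated library, was lower in all 3 H2O2 libraries than in any untreated one. It was at 25610, 13195 and 26797 CPM (reads per 1000000 of the library total) in H2O2 replicates 1, 2 and 3, against 56564, 66454 and 95012 CPM in untreated replicates 1, 2 and 3. The groups did not overlap, as the highest H2O2 library was at 26797 CPM and the lowest untreated library at 56564 CPM; replicate 2 was the lowest of the H2O2 libraries. As counts, these were 78857, 32327 and 110712 reads in H2O2 libraries and 178942, 175728 and 513591 reads in untreated libraries. Its rank among the 161 known listed miRNAs was 2, 3 and 3 in H2O2 replicates 1 to 3 and 1 in each untreated library. Counting error was small at this depth. The exact 95% binomial interval of its share of all reads was 1.31% to 1.33% in H2O2 replicate 2 and 9.48% to 9.53% in untreated replicate 3, the libraries at either end, and such intervals cover counting error only.

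The mean of miR-148a-3p was 21868 ± 7534 CPM in H2O2 exosomes and 72677 ± 19965 CPM in untreated exosomes (SD, n = 3 each), so the H2O2 mean was 69.9% lower. edgeR's quasi-likelihood test gave a log2 fold change of -1.73 with an SE of 0.53, and the p after Benjamini-Hochberg adjustment was 0.0253. In the authors' deposited table the log2 fold change was -1.54, with an unadjusted p of 0.000418. The call was lost without H2O2 replicate 1 (-1.86, edgeR adjusted p = 0.0662), without H2O2 replicate 2 (-1.47, adjusted p = 0.0518) and without untreated replicate 3 (-1.49, adjusted p = 0.0559). With the reads of miR-1246 taken out of the totals the H2O2 libraries were at 26491, 13230 and 36934 CPM, still below the lowest untreated library at 56637 CPM. With the 3 distinct predicted entries matched to miR-1246 taken out as well, the call was lost (-1.44, edgeR adjusted p = 0.053). The groups still did not overlap there, with the highest H2O2 library at 41022 CPM and the lowest untreated library at 56670 CPM.

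miR-148b-3p, with the same seed and far fewer reads, was also lower in every H2O2 library than in any untreated one. It was at 1406, 1725 and 2214 CPM in H2O2 replicates 1, 2 and 3, against 5176, 3253 and 11423 CPM in untreated replicates 1, 2 and 3. The groups did not overlap, but untreated replicate 2 was only 1.47 times the highest H2O2 library, and untreated replicate 3 stood far above the other untreated libraries. As counts, these were 4329, 4225 and 9147 reads in H2O2 libraries and 16374, 8603 and 61745 reads in untreated libraries. Its rank among the known listed miRNAs was 13, 12 and 10 in H2O2 replicates 1 to 3 and 7, 9 and 7 in untreated replicates 1 to 3. The highest library was 1.57 times the lowest in the H2O2 group and 3.51 times the lowest in the untreated group.

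The mean of miR-148b-3p was 1782 ± 407 CPM in H2O2 exosomes and 6617 ± 4271 CPM in untreated exosomes (SD, n = 3 each), so the H2O2 mean was 73.1% lower. By the same edgeR test the log2 fold change was -1.89 with an SE of 0.53, at an adjusted p of 0.0202. In the authors' deposited table it was -1.73, with an unadjusted p of 0.000538. Without untreated replicate 3, the library that stood highest, the log2 fold change was -1.24 (edgeR adjusted p = 0.0344), and without H2O2 replicate 1 the call was lost (-1.75, adjusted p = 0.0642). With only the reads of miR-1246 taken out of the totals, the highest H2O2 library was at 3052 CPM and the lowest untreated library at 3265 CPM. With the 3 distinct predicted entries matched to miR-1246 taken out as well, the groups overlapped, as H2O2 replicate 3 was at 3389 CPM and untreated replicate 2 at 3271 CPM. The call of miR-148b-3p was kept in that setting (-1.60, edgeR adjusted p = 0.0362).

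**Figure D1:**
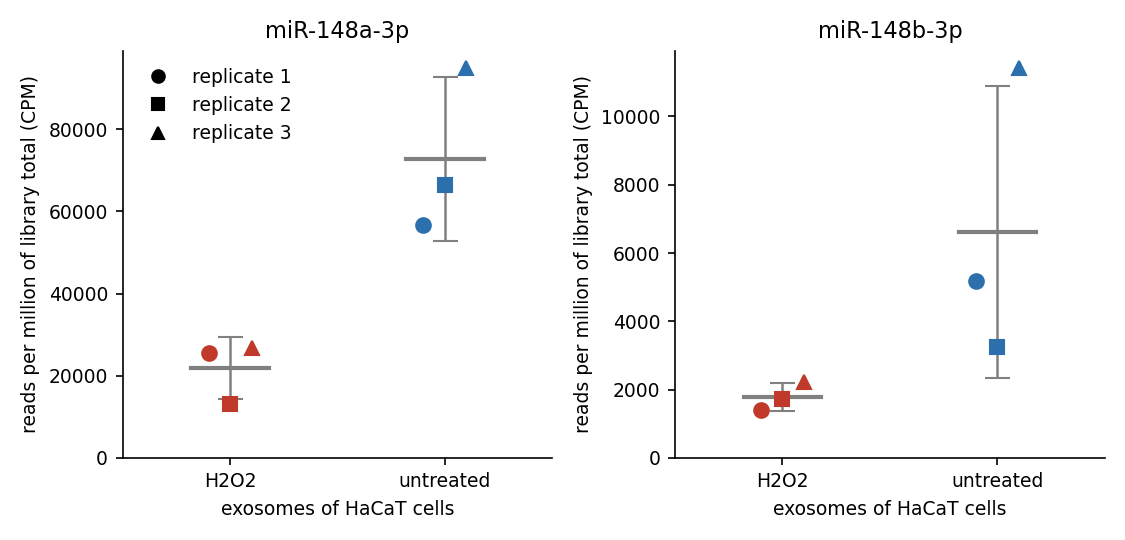
Level of miR-148a-3p (left) and miR-148b-3p (right) in exosomes of H2O2-treated and untreated HaCaT cells, in reads per 1000000 of the library total (CPM). Each point is a library, the marker shape gives the replicate number, and the grey line and bar are the mean and SD over 3 libraries; all H2O2 points lie below all untreated points in both panels.

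These calls have to be read against the background of the tables. Of the 186 rows that passed the count filter (5 or more reads in 3 or more libraries), 79 were called lower in H2O2 exosomes, which is 42.5% of the rows tested, and 70 were called higher, which is 37.6%. Some rows had a fit identical to that of another row, and each was counted. Examples are the predicted entries matched to bta-miR-2327 (log2 fold change 4.17 in each), and miR-3179 with those matched to ppy-miR-3154 (-2.37 in each). Among the 127 known rows tested, 61 (48.0%) were called lower. In 42.5% of the rows tested, every H2O2 library also lay below every untreated one. All listed rows were selected by the authors on these same libraries, with the highest p in their deposited tables at 0.049 and the smallest absolute log2 fold change at 1.03. These shares also count rows listed as higher, so among rows listed as lower, as both members are, the shares are larger. A call and groups without overlap in both members are thus close to what the rows listed as lower hold throughout. The size by which the selection lowers the adjusted p-values cannot be worked out. With 2000 miRNAs assumed as the number tested, the edgeR adjusted p was 0.272 for miR-148a-3p and 0.217 for miR-148b-3p. Ordered from the largest fall, miR-148b-3p was number 12 and miR-148a-3p number 25 of the 61 known miRNAs called lower, whose median log2 fold change was -1.64. The median was -1.23 over the 127 known rows tested and 1.03 over all 186 rows tested, so its sign depends on whether predicted rows are counted. The count of 79 dropped to 4, 48 and 35 when H2O2 replicate 1, 2 or 3 was left out, and to 35, 29 and 51 when untreated replicate 1, 2 or 3 was left out.

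**Figure D2:**
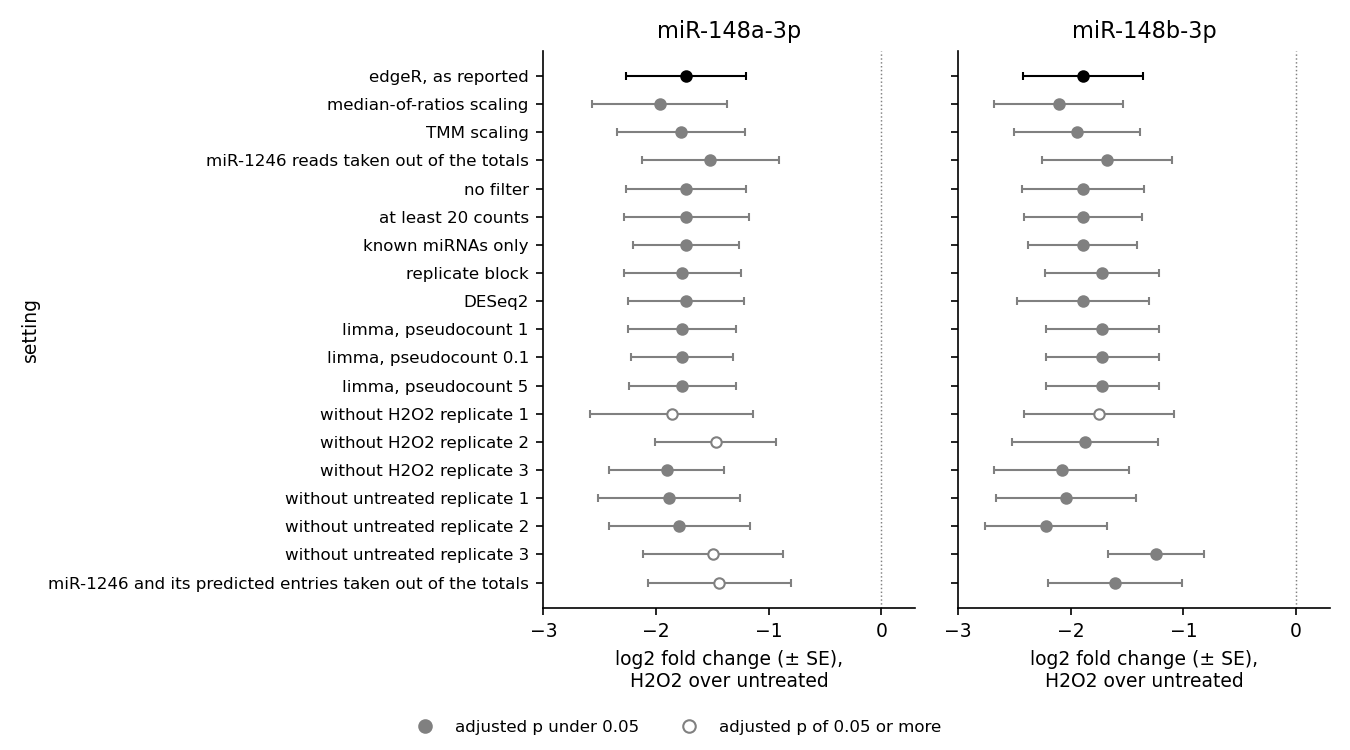
Log2 fold change of each member, H2O2 over untreated, under the reported test (black, top) and each alternative (grey), with bars for the SE; filled points have an adjusted p under 0.05 and open points do not. All values lie below 0, from -1.97 to -1.44 for miR-148a-3p and from -2.22 to -1.24 for miR-148b-3p.

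The members' shares of each other do not depend on the library total, so they allow a comparison of the H2O2 response of the members without any scaling. miR-148b-3p made up 5.20%, 11.6% and 7.63% of the reads of both members in H2O2 replicates 1, 2 and 3, against 8.38%, 4.67% and 10.7% in untreated replicates 1, 2 and 3. The groups overlapped, with the highest share in H2O2 replicate 2 and the lowest in untreated replicate 2. The exact 95% binomial intervals were narrow beside these gaps, at 11.2% to 11.9% in H2O2 replicate 2 and 4.57% to 4.76% in untreated replicate 2, so libraries of 1 group differed by more than counting error. miR-148a-3p had 18.2, 7.65 and 12.1 reads per read of miR-148b-3p in H2O2 replicates 1 to 3 and 10.9, 20.4 and 8.32 in untreated replicates 1 to 3.

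On the log2 scale this ratio averaged 3.57 ± 0.63 in H2O2 exosomes and 3.62 ± 0.66 in untreated exosomes (SD, n = 3 each). The difference was -0.05, with a two-sided exact permutation p of 0.9, where 0.1 is the smallest p that 3 against 3 libraries allow. The 9 differences between an H2O2 and an untreated library ran from -1.42 to 1.13, a range that covers a shift between the groups with 90% confidence. A difference in response of the members within that range was not detectable with these libraries, and the p does not show that they respond alike. The sum of both members was 27016, 14920 and 29011 CPM in H2O2 replicates 1 to 3, against 61739, 69707 and 106435 CPM in untreated replicates 1 to 3.

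**Figure D3:**
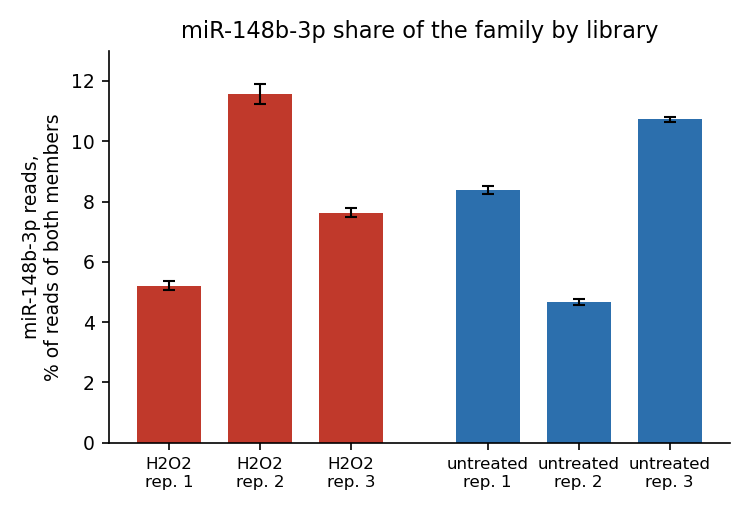
Reads of miR-148b-3p as a percentage of the reads of both members in each library, with exact 95% binomial intervals (counting error only). H2O2 libraries run from 5.20% to 11.6% and untreated libraries from 4.67% to 10.7%, so the groups overlap.

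Reads of the members were also set against those of the 8 other miRNAs among the 10 most abundant known rows, again within each library. The 3 of these that are listed as higher are miR-1246, let-7f-5p and miR-9-5p, and the 5 listed as lower are miR-221-3p, miR-183-5p, miR-30c-5p, miR-191-5p and miR-99a-5p. Against let-7f-5p, a member of the let-7 family of growth-restraining miRNAs, miR-148a-3p had 1.11, 0.388 and 0.628 reads per read in H2O2 replicates 1 to 3 and 2.55, 7.01 and 4.34 in untreated replicates 1 to 3. The groups did not overlap, and let-7f-5p had more reads than miR-148a-3p in H2O2 replicates 2 and 3 and in no untreated library (0). Against miR-9-5p, best known from neural tissue, miR-148a-3p had 6.41, 2.40 and 6.89 reads per read in H2O2 replicates 1 to 3 and 25.1, 32.6 and 54.4 in untreated replicates 1 to 3. miR-148b-3p had 0.0608, 0.0507 and 0.0519 reads per read of let-7f-5p in H2O2 replicates 1 to 3 and 0.234, 0.343 and 0.522 in untreated replicates 1 to 3. For both members the groups were apart against all 3 miRNAs listed as higher, which is a description only, as the authors selected the members as lower and these 3 as higher on the same libraries. Of the 3, let-7f-5p was itself not called (log2 fold change 0.90, edgeR adjusted p = 0.12).

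Against the 5 abundant miRNAs listed as lower, the groups overlapped for both members in every case. miR-221-3p, a miRNA that represses the cell cycle inhibitor p27, is the nearest to miR-148a-3p in abundance among these. miR-148a-3p had 2.07, 0.880 and 3.29 reads per read of miR-221-3p in H2O2 replicates 1 to 3 and 1.49, 1.49 and 3.08 in untreated replicates 1 to 3. The mean log2 ratio of miR-148a-3p to each of the 5 was lower in H2O2 exosomes by values from -0.62 for miR-191-5p to -0.06 for miR-221-3p, and that of miR-148b-3p by values from -0.57 to -0.02 for the same miRNAs. These differences were not tested, since they compare rows that the authors selected in the same direction.

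**Figure D4:**
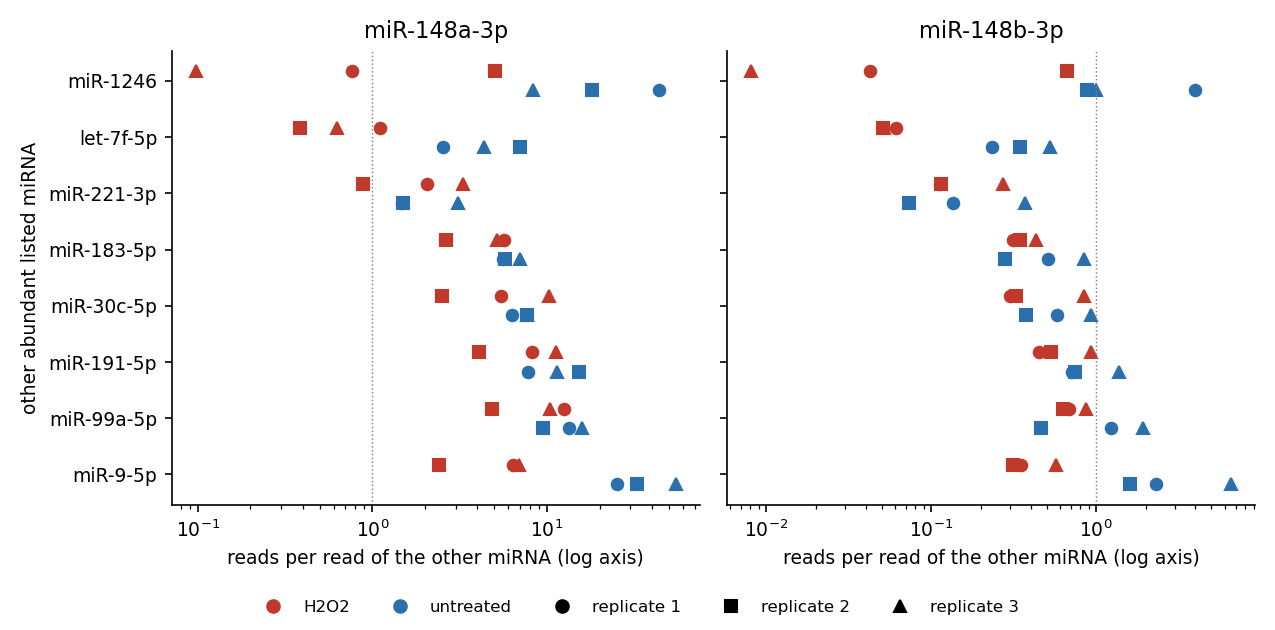
Reads of miR-148a-3p (left) and miR-148b-3p (right) per read of each of the 8 other most abundant listed miRNAs, on a log axis, with 1 point per library coloured by group and shaped by replicate. The H2O2 and untreated points are apart against miR-1246, let-7f-5p and miR-9-5p and overlap against the other 5.

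Both members can also be placed by their profiles over the 6 libraries. Each profile was log2(CPM + 1) centred on its mean over the 6 libraries, and likeness was the root mean square (RMS) difference between profiles, over 76 other known miRNAs with a mean of at least 10 CPM. Closest to miR-148a-3p was miR-3158-3p, at an RMS difference of 0.16 log2 units. It was at 23.4, 14.7 and 26.1 CPM in H2O2 replicates 1 to 3 and 50.9, 72.6 and 81.8 CPM in untreated replicates 1 to 3, so its libraries stand in the same order as those of miR-148a-3p. The next were miR-450a-5p at 0.25, miR-125b-2-3p at 0.29, miR-629-5p at 0.32 and miR-95-3p at 0.37. The other family member, miR-148b-3p, came only at rank 16, with an RMS difference of 0.53.

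Closest to miR-148b-3p was miR-1301-3p, at an RMS difference of 0.36 log2 units. It was at 69.8, 72.2 and 59.1 CPM in H2O2 replicates 1 to 3 and 166, 101 and 279 CPM in untreated replicates 1 to 3, with the same order of untreated libraries as miR-148b-3p. The next were miR-1271-5p at 0.39, miR-219a-1-3p at 0.48, miR-629-5p at 0.498 and miR-191-5p at 0.53, and miR-148a-3p followed at rank 6. All of these profiles share the library totals and the authors' selection as lower, and the likeness is a description of 6 libraries.

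Of the 8 miRNAs in the list of those reported to repress DNA methyltransferases, 4 are in the tables. The 2 family members were called lower, and 2 were called higher, miR-29b-3p and miR-29c-3p, which are known for repressing DNMT3A and DNMT3B. Over all rows tested 42.5% were called lower and 37.6% higher, so this split is near the background. miR-29b-3p was at 343, 370 and 315 CPM in H2O2 replicates 1 to 3 and 144, 133 and 152 CPM in untreated replicates 1 to 3, with no overlap. Its log2 fold change was 1.26 ± 0.33 (SE; edgeR adjusted p = 0.0143), and the call was lost without H2O2 replicate 1. miR-29c-3p averaged 44.4 ± 2.75 CPM in H2O2 exosomes and 22.3 ± 6.05 CPM in untreated exosomes (n = 3 each, with the SD). The log2 fold change of miR-29c-3p was 0.99 with an SE of 0.41 (edgeR adjusted p = 0.0483). That call was kept in only 1 of the 6 runs without a library, that without untreated replicate 3, and was lost with TMM scaling, with median-of-ratios scaling, with no filter and with the replicate number as a block (1.02, edgeR adjusted p = 0.0573). The median log2 fold change of the 4 listed members, the family included, was -0.37, against -1.23 over the known rows tested and 1.03 over all rows tested. miR-29a-3p, miR-152-3p, miR-185-5p and miR-342-3p are not among the listed rows.

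Of the 6 miRNAs in the MITF and pigmentation list, 2 are listed, and these differed in direction. With 42.5% of all rows tested called lower and 37.6% called higher, such a split is near the background. miR-148a-3p was called lower, and miR-330-5p was called higher, at 62.0, 111 and 81.1 CPM in H2O2 replicates 1 to 3 against 28.8, 39.3 and 52.9 CPM in untreated replicates 1 to 3. The log2 fold change of miR-330-5p was 1.07 ± 0.43 (SE; edgeR adjusted p = 0.0437), and the call was lost with TMM scaling, with median-of-ratios scaling and in 5 of the 6 runs without a library.

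Blood cell and serum markers made up a list of 9 miRNAs, and 4 are in the tables, miR-451a and miR-486-5p of red cells, miR-142-5p of white cells and the liver miRNA miR-122-5p, and 4 were called lower, as the family members were. The authors had listed all 4 as lower. Of the known rows tested 48.0%, and of all rows tested 42.5%, were called lower, shares that also count rows listed as higher. The median log2 fold change of the 4 was -1.92, against -1.64 over the 61 known rows called lower. It was -1.23 over all known rows tested, which include rows listed as higher. In the 6 runs without a library, miR-486-5p and miR-122-5p kept their calls in 5 and miR-451a in 3. miR-142-5p, with 1 to 12 reads per library, passed the count filter in only 3 of these runs, those without an H2O2 library, and was called in 0 of the 3. Its call was also lost with the replicate number as a block (-1.73, edgeR adjusted p = 0.0672), with miR-1246 reads out of the totals (-1.64, adjusted p = 0.0572) or its predicted entries out as well (-1.58, adjusted p = 0.0675), with no filter (-1.88, adjusted p = 0.0679) and with limma at a pseudocount of 0.1 (-1.78, adjusted p = 0.0505). The summed level of the 4 ran from 14.6 to 24.1 CPM in H2O2 libraries and from 52.8 to 174 CPM in untreated libraries. The highest sum was in untreated replicate 2, where miR-122-5p made up most of it, at 118 CPM. Both family members were highest in untreated replicate 3. None of the 4 was at 0 in any library. With 2000 miRNAs assumed as the number tested, 0 of these 4 were called, and neither were miR-29b-3p, miR-29c-3p and miR-330-5p. The labels used here do not say whether the medium held serum, and the part of RNA from other cells or from serum in the family's levels was not tested.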

How the data were processed

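Small RNA libraries of exosomal RNA (Trizol extraction, a NEBNext small RNA kit) were compared between 3 H2O2 and 3 untreated samples. Per the submitters' processing notes, the authors used Bowtie 1.1.1, cutadapt, FastQC and bcl2fastq. A genome build, a miRNA catalogue and counting rules are not given in the sources used. The authors deposited raw read counts, and a CPM value, the count per 1000000 reads of a library total. For rows they selected, the authors deposited a p-value, a fold (linear ratio) and its log2, in tables of known and predicted miRNAs listed as higher or lower.

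The main test was edgeR 4.0.16 under R 4.3.3 (estimateDisp, glmQLFit, glmQLFTest, two-sided) on all 6 libraries and all rows having 5 or more counts in 3 or more libraries, known and predicted together, with the recovered totals (2449856 to 5405525 reads), no composition factor, Benjamini-Hochberg adjustment over 186 rows and a threshold of 0.05. The SE is the fold change over the root of F. On simulated counts for this comparison, 40 of 40 rows changed by 2 on the log2 scale were recovered, with 2 false calls, among 183 rows. The simulation gave all rows the same dispersion and left most unchanged, unlike the rows the authors selected. It thus checks that the code runs and does not give the error rates of this comparison. Alternatives were other scalings and filters, known rows only, a replicate block, DESeq2 1.42.0, limma 3.58.1 on log2(CPM + pseudocount), each library left out, and, chosen after seeing the data, totals without miR-1246 and its predicted entries.

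The members, lists and tests were chosen with earlier results of these data known. The named miRNAs were the 2 members, listed members of the marker and pathway lists, the 10 most abundant known rows, and the 5 known miRNAs with at least 10 mean CPM closest in profile to each member. Sequences come from RefSeq (2 of 2 members matched) and gene positions from GENCODE release 29, both GRCh38.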

Additional observations from a re-analysis of the deposited data

How the results depend on the processing

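Both members were lower in H2O2 exosomes in all 19 alternatives run for each, but this direction was nearly fixed beforehand. The authors selected both as lower on these libraries. As the groups did not overlap in CPM, leaving out a library could not reverse it. Changing only the filter or the number assumed tested left the log2 fold changes at -1.73 and -1.89. For miR-148a-3p the log2 fold change lost its call with miR-1246 and its predicted entries taken out of the totals (-1.44, edgeR adjusted p = 0.053) and with 2000 miRNAs assumed tested (-1.73), and it ran from -1.91 to -1.47 when a library was left out, with edgeR adjusted p-values from 0.0253 to 0.0662. For miR-148b-3p it lost its call with 2000 miRNAs assumed tested (-1.89) and ran from -2.22 to -1.24 when a library was left out, with adjusted p-values from 0.0253 to 0.0642. Against the reported test, the log2 fold changes of the tested rows shifted by a median of -0.28 with median-of-ratios scaling. That median shift was 0.17 with totals without miR-1246 reads and 0.23 with the predicted entries out too. The members were at -1.97 and -2.10 with median-of-ratios scaling. The count of rows called lower was 79 as reported, 48 with at least 20 counts (118 rows tested) and 48 with miR-1246 and its predicted entries out. DESeq2, with its own adjustment, called 84 lower, and 4 to 51 were called lower when a library was left out. With edgeR and 2000 assumed tested the count was 0, though 161 rows of either direction had an unadjusted edgeR p under 0.05. Of all calls, 53.0% were lower as reported, 60.7% with median-of-ratios scaling, 56.3% with TMM scaling, 42.9% with miR-1246 reads out and 36.9% with the predicted entries out too. The difference in the log2 ratio of the members ran from -0.35 to 0.32 when a library was left out and was 0.32 from group sums of counts.

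With the replicate block, the log2 fold change was -1.77 for miR-148a-3p and -1.72 for miR-148b-3p, 78 rows were called lower, and the calls of miR-29c-3p and miR-142-5p were lost. The difference in log2 ratio stayed at -0.05, which pairing cannot change, as the mean of paired differences equals the difference of the group means. The correlations of same-numbered libraries' deviations over the tested rows were 0.197, 0.0775 and 0.227 for replicates 1, 2 and 3. Those of differently numbered libraries ran from -0.252 (H2O2 replicate 3 with untreated replicate 1) to 0.122 (H2O2 replicate 2 with untreated replicate 1). H2O2 replicates 1 and 3 were thus closest to the untreated library of the same number, and H2O2 replicate 2 to untreated replicate 1. Whether same-numbered samples were paired is not settled by these values or by the labels. Depth limited neither member, as every library had at least 4225 reads of each.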
